A study of Mus musculus with 6 samples.

Results

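RNA levels of 37 nuclear genes for subunits of respiratory complexes II, III, IV and V were compared in microdissected olfactory epithelium of Harlequin and control mice. The members were a fixed list of 38 gene symbols, matched to the gene names of the array's probe sets through current or older symbols. The matching used no measured values, but the list was chosen with earlier results of these data known. Of 18193 genes named by a single-gene probe set, 37 were members, measured by 78 probe sets. For Cox7b no probe set was named in the annotation used here, and it was not analysed here. The Harlequin group was 3 males hemizygous for the Hq allele (Hq/Y), of a strain named B6CBACAw-J/A-Pdcd8-Hq/J, and the control group 3 male littermates (+/Y), whose strain was given as B6CBACa. All 6 mice were 6 months old and had no treatment named in the labels, and each was profiled on 1 Affymetrix array. The strain names differ with the genotype although the controls are labelled littermates, and any background difference between the groups cannot be told apart from genotype. Hq is a germline allele of Aifm1, which older tables list as Pdcd8 and which encodes apoptosis-inducing factor, so it is carried by every cell type of the tissue.

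The mitochondrial respiratory chain passes electrons from NADH and succinate to oxygen and uses the energy to pump protons. Complex I and complex II feed electrons into ubiquinone, complex III hands them to cytochrome c, complex IV reduces oxygen, and complex V, the ATP synthase, makes ATP from the proton gradient. Apoptosis-inducing factor is needed for normal amounts of complex I, and complexes II to V are the rest of the chain beside it. Complex II is encoded by nuclear genes alone. Part of the core of complex III, the catalytic core of complex IV and part of the membrane motor of complex V come from mitochondrial DNA. Those genes are not analysed here. Olfactory sensory neurons signal through cilia and are renewed throughout life, both of which use ATP.

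On the arrays, Aifm1 read 335.4, 221.1 and 211.2 in Harlequin and 1239.9, 1255.6 and 1128.2 in controls, which is in the direction of the labels in all 3 mutants. Its fall to 21.2% of the control signal passed the test over all genes (log2 difference -2.20, SE 0.18, limma adjusted p = 0.0158). The call was lost without control replicate 1, 2 or 3 (adjusted p = 0.097, 0.0616 and 0.068) and without an intensity trend (0.0887), while the difference stayed between -2.40 and -2.08 with 1 array left out. Of 10 listed markers of mature olfactory neurons, 8 had a single-gene probe set, as did 5 of 7 for sustentacular cells, the supporting cells. All of these markers of the labelled tissue passed the signal filter. Omp gave 17458 ± 1475 in mutants against 16887 ± 479 in controls (SD, n = 3). Of 8 listed red cell markers 5 had a single-gene probe set, and 3 passed the filter. These summed to 2848 to 3709 in Harlequin and 637.7 to 1946 in controls. Neutrophil markers (8 of 8) summed to 39488 to 59410.5 in Harlequin and 21554 to 52689 in controls. Fibroblast and matrix markers (8 of 8, all on average lower, median -0.42) summed to 19980.4 to 38623 in Harlequin. In controls their sum was 26097 to 40734. Of 6 listed adipocyte markers 5 had a single-gene probe set, and 3 passed the filter (median 1.17). Those 3 summed to 1100.0 to 2581 in Harlequin and 989.6 to 1620 in controls. Of all these marker genes 0 were called. The part of these other cells in the results that follow was not tested. Only 6 arrays were made, and their number limits the precision.

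In each marker list the genes of smallest p were these. The red cell genes Alas2, Slc4a1 and Car1 differed by 1.52, 1.43 and 1.46, with all mutants above all controls for Alas2 and Car1, and the adipocyte genes Adipoq, Fabp4 and Cidea by 1.17, 1.37 and -0.014, with all mutants above for Adipoq. The neutrophil genes Ngp, Camp and S100a8 differed by 1.02, 0.97 and 0.78, and the matrix genes Col6a1, Sparc and Col3a1 by -0.52, -0.55 and -0.77, with all mutants below all controls for Col6a1. The basal cell genes Trp63, Krt14 and Neurod1 differed by -0.46, 0.24 and -0.025, and the dim muscle genes Acta1, Actn3 and Mylpf by 0.66, -0.29 and -0.05. In the tissue's own lists, the neuronal Omp, Cnga2 and Slc17a6 differed by 0.045, 0.042 and 0.05 and the sustentacular Ermn, Sult1c1 and Cyp1a2 by -0.23, -0.048 and -0.053. The limma adjusted p was 0.75 for Alas2 and Adipoq and at least 0.981 for the others named here.

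The comparison asked whether transcripts of the chain beyond complex I differ when apoptosis-inducing factor is low. None of the 37 subunits was called changed. Of the 37, 20 were on average higher in Harlequin and 17 lower, and the differences ran from -0.22 for Atp5pf to 0.20 for Cox7c on the log2(value + 16) scale, with a median of 0.016, against 0.00005 over all 13219 genes tested. The 4 genes called at a limma adjusted p under 0.05 were 0.0303% of all genes tested, 2 of them higher (0.0151%) and 2 lower (0.0151%). The adjusted p of the members lay between 0.981 and 0.999. At an unadjusted p under 0.05 there was 1 member, Atp5po, or 1 of 37, where 4.58% of all genes tested had such a p. In tissue RNA, fewer cells of a type and less RNA per cell cannot be told apart.

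The intervals show what size of difference is left room for by the 1 probe set used for each gene. They do not take in disagreement between probe sets of the same gene, which is described below. The 95% interval of the difference lay within 1.5-fold either way for 36 of 37 members, against 67.2% of all genes tested, and within 1.25-fold for 32 of 37, or 86.5%, against 19.2% of all genes. The exception at 1.5-fold was Cox7c, whose interval reached 1.51-fold. The median SE was 0.075 for the members and 0.15 for all genes tested. Members gave strong signals, with 36 of 37 above 2000 in both genotypes, and the part of brightness in their small errors was not tested. Whether the brightest probe cells were saturated cannot be read from the condensed values.

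**Figure D1:**
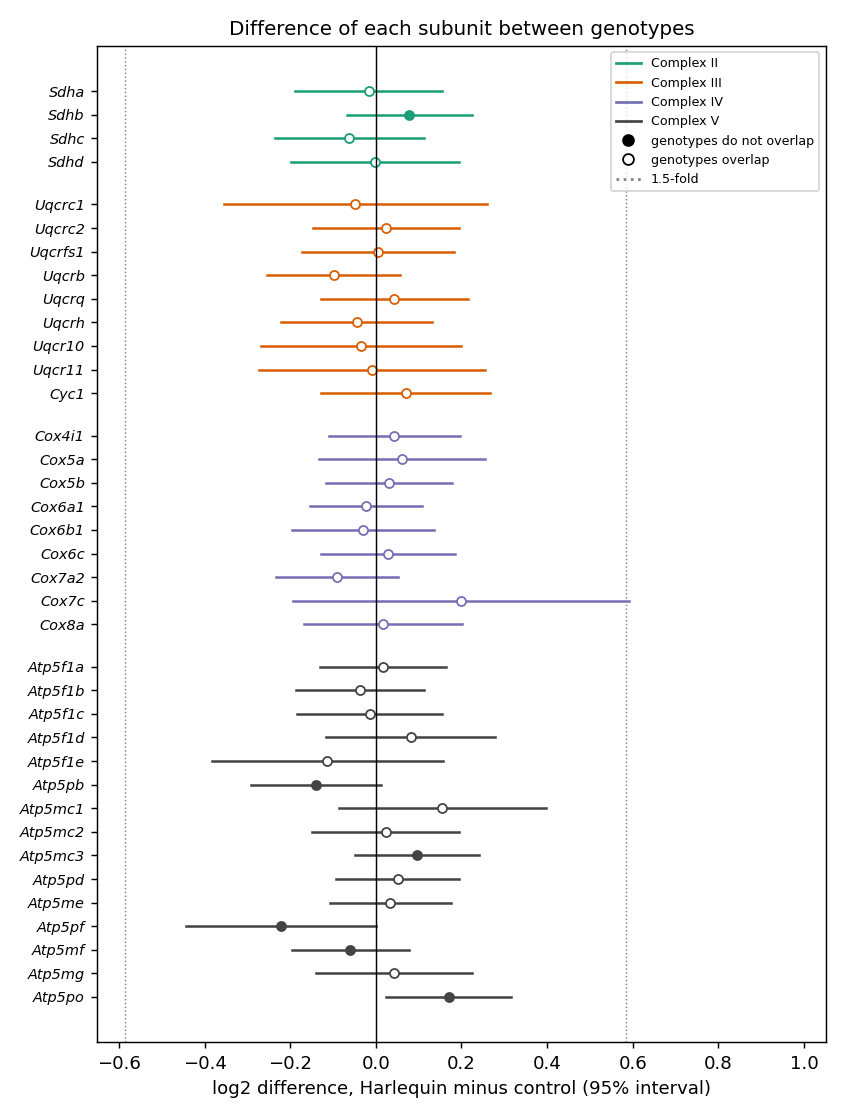
Log2 difference (Harlequin minus control, log2(value + 16) scale) of each of 37 subunits with its 95% interval, grouped by complex. Filled points mark the 6 subunits whose genotypes do not overlap, and the dotted lines mark 1.5-fold. The intervals of all subunits but Atp5po span 0, and only that of Cox7c crosses a dotted line.

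Complex II, succinate dehydrogenase, oxidises succinate and passes the electrons to ubiquinone. Its 4 subunits had a median difference of -0.0091, with 1 higher, 3 lower and 0 called. The flavoprotein Sdha, which binds succinate, gave 6772.8, 6579.2 and 6205.3 in the Harlequin mice against 6734.4, 6195.6 and 6857.4 in the littermates. The genotypes overlapped and differed by -0.016 (SE 0.075, 95% interval -0.19 to 0.16). The iron-sulfur subunit Sdhb gave 8875.7, 8968.7 and 9081.6 in the Harlequin mice against 8789.6, 8568.5 and 8156.3 in the littermates. Every Harlequin value of Sdhb was thus above every control value, and the difference of 0.078 (SE 0.064, 95% interval -0.068 to 0.22) did not pass (limma adjusted p = 0.981). The membrane anchor Sdhc gave 3326.4, 3406.7 and 3581.2 in the Harlequin mice against 3577.8, 3507.4 and 3680.7 in the littermates, with Harlequin replicate 3 above control replicates 1 and 2 and a difference of -0.062 (-0.24 to 0.11). The other anchor, Sdhd, gave 3379 ± 34.9 in mutants against 3390.5 ± 271 in controls (SD, n = 3), a difference of -0.0018. A weaker probe set of Sdhd, at a mean signal of 626, differed by -0.41, and a weaker one of Sdhc by -0.17.

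Complex III, the cytochrome bc1 complex, moves electrons from ubiquinol to cytochrome c. Its 9 subunits had a median of -0.0087, with 4 higher, 5 lower and 0 called. No subunit of the 9 separated the genotypes, where 10.4% of all genes tested did. The Rieske iron-sulfur protein Uqcrfs1 gave 5542.4, 5840.7 and 5171.7 in the Harlequin mice against 5718.2, 5476.7 and 5283.9 in the littermates. The ranges overlapped almost whole, with a difference of 0.0056 (SE 0.077, 95% interval -0.17 to 0.18). Cytochrome c1, Cyc1, which hands the electron on, gave 4736.3, 4820.4 and 4424.6 in the Harlequin mice against 4832.8, 4109.3 and 4396.5 in the littermates. Control replicate 1 was the highest of the 6 arrays, and the difference was 0.07 (-0.13 to 0.27). The accessory subunit Uqcrb, which had the smallest p of the complex, gave 22923.4, 22621.6 and 20257.3 in the Harlequin mice against 23080.9, 24573.9 and 22723.3 in the littermates. Harlequin replicate 3 was the lowest, the other Harlequin arrays lay near control replicates 1 and 3, and the difference was -0.098 (-0.25 to 0.057, adjusted p = 0.981). Among the rest, the core proteins Uqcrc1 and Uqcrc2 differed by -0.048 and 0.023, and the small subunits Uqcrq, Uqcrh, Uqcr10 and Uqcr11 by 0.043, -0.045, -0.035 and -0.0087. Uqcrc1 had the widest interval of the complex (-0.36 to 0.26), with control replicate 3 at 6666.7 and control replicate 2 at 4665.5. Without control replicate 3 its difference was 0.098.

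Complex IV, cytochrome c oxidase, reduces oxygen to water. Its 9 measured nuclear subunits of 10 listed surround the mitochondrially encoded core and had a median of 0.028, with 6 higher, 3 lower and 0 called. The genotypes overlapped for all 9, where they separated for 10.4% of all genes tested. Cox4i1, a subunit at which ATP regulates the enzyme, gave 14595.2, 13272.1 and 13108.0 in the Harlequin mice against 13455.5, 12821.4 and 13462.5 in the littermates. Harlequin replicate 1 was the highest array, and the difference was 0.043 (SE 0.067, 95% interval -0.11 to 0.20). Cox5a gave 10953.3, 12239.6 and 10201.0 in the Harlequin mice against 11116.5, 10869.2 and 9957.7 in the littermates, with Harlequin replicate 2 above the rest and a difference of 0.062 (-0.13 to 0.26). Cox6a1, in its widely expressed form, gave 16715.3, 16151.0 and 16181.6 in the Harlequin mice against 17194.8, 16455.4 and 16185.4 in the littermates. It had the narrowest interval of all 37 members, -0.15 to 0.11 around -0.023. Cox7a2, also the widely expressed form, gave 16655.1, 16137.8 and 16181.3 in the Harlequin mice against 16561.5, 18415.3 and 17211.5 in the littermates. Control replicate 2 stood above the others and Harlequin replicate 1 lay above control replicate 1, for a difference of -0.09 (-0.23 to 0.052). Cox7c gave 214.8, 229.0 and 286.8 in the Harlequin mice against 183.9, 233.3 and 211.0 in the littermates. The signal was low in both genotypes, and the interval of -0.19 to 0.59 around 0.20 was the widest of the 37. The remaining Cox5b, Cox6b1, Cox6c and Cox8a differed by 0.03, -0.03, 0.028 and 0.017.

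Complex V, the ATP synthase, couples proton flow through a membrane ring to ATP synthesis in the F1 head, which a peripheral stalk holds still. Its 15 subunits had a median of 0.023, with 9 higher, 6 lower and 0 called. In the F1 head, the alpha subunit Atp5f1a gave 11124.3, 10476.2 and 10474.9 in the Harlequin mice against 10988.8, 10502.1 and 10224.0 in the littermates, with overlapping genotypes and a difference of 0.016 (SE 0.064, 95% interval -0.13 to 0.16). The catalytic beta subunit Atp5f1b gave 13188.9, 12240.0 and 11786.3 in the Harlequin mice against 12736.3, 12886.5 and 12547.7 in the littermates, for a difference of -0.038 (-0.19 to 0.11). The 3 controls lay inside the range of the 3 mutants. The gamma, delta and epsilon subunits of the rotor, Atp5f1c, Atp5f1d and Atp5f1e, differed by -0.015, 0.082 and -0.11.

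The peripheral stalk held the member with the lowest and the member with the highest difference of complex V. Atp5pf, coupling factor 6, gave 8846.6, 9461.4 and 9009.5 in the Harlequin mice against 9515.4, 12258.7 and 10249.7 in the littermates. All mutants lay below all controls, but Harlequin replicate 2 and control replicate 1 were close and control replicate 2 stood far above the rest. The difference was -0.22 (SE 0.097, 95% interval -0.44 to 0.0014, limma adjusted p = 0.981), and -0.12 without control replicate 2. Atp5pb, the b subunit of the stalk, gave 11080.1, 11193.8 and 11293.9 in the Harlequin mice against 12266.4, 13116.0 and 11657.3 in the littermates. The mutants lay close together below all controls, at a difference of -0.14 (SE 0.066, 95% interval -0.29 to 0.011, adjusted p = 0.981). Atp5po, the oligomycin sensitivity protein that joins the stalk to the head, ran the other way, with 12903.6, 11842.8 and 12095.0 in the Harlequin mice against 11134.0, 10966.3 and 10617.8 in the littermates. All mutants lay above all controls, and the interval of 0.024 to 0.32 around 0.17 was the single one among the 37 that did not include 0 (SE 0.064, adjusted p = 0.981). The second probe set of Atp5po, at a mean signal of 3025, differed by -0.24, and the mean over both gave -0.036. The fourth stalk subunit, Atp5pd, differed by 0.051.

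In the membrane part, 3 genes encode the same mature c subunit of the proton-driven ring. All 3 were on average higher in Harlequin, Atp5mc1 by 0.16 (-0.086 to 0.40), Atp5mc2 by 0.023 (-0.15 to 0.19) and Atp5mc3 by 0.096, and 0 were called. Atp5mc3 gave 13344.1, 13016.5 and 13607.3 in the Harlequin mice against 12612.7, 12982.2 and 11811.2 in the littermates. All mutants were above all controls, though Harlequin replicate 2 and control replicate 2 lay close together (95% interval -0.049 to 0.24, adjusted p = 0.981). Atp5mc1 overlapped, since Harlequin replicate 2, at 2360.2, lay below control replicates 1 and 3. The small f subunit Atp5mf gave 11476.7, 11712.8 and 11273.2 in the Harlequin mice against 11772.9, 12325.4 and 11822.0 in the littermates, all mutants below all controls at a difference of -0.06 (-0.20 to 0.076). The e and g subunits, Atp5me and Atp5mg, differed by 0.034 and 0.042.

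**Figure D2:**
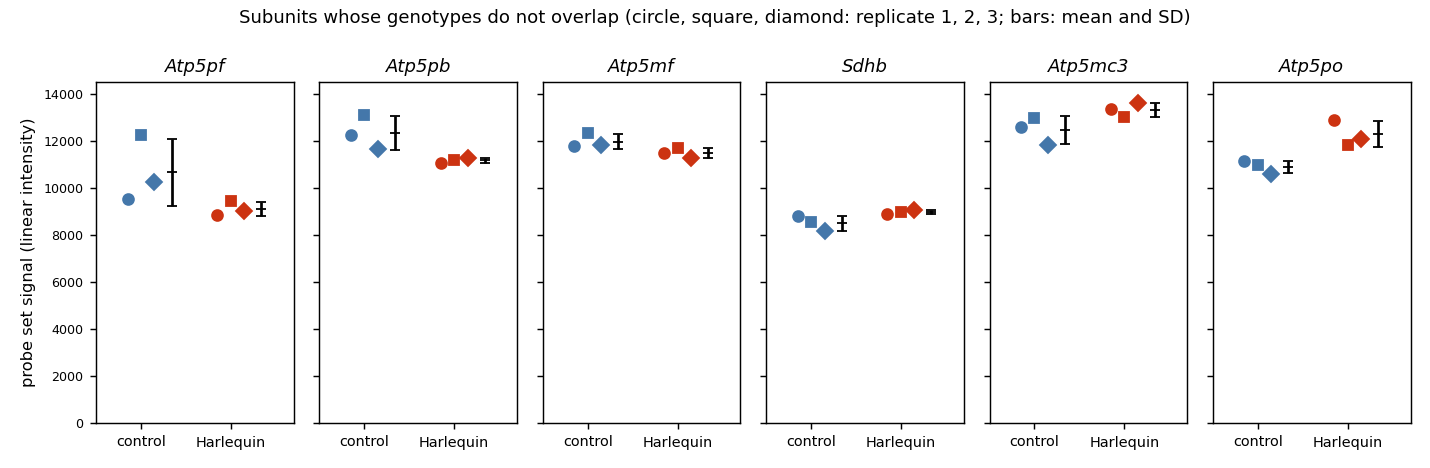
Signal of the 6 subunits whose Harlequin values all lie on one side of the control values (linear intensity, axis from 0), with each array as a point and the mean and SD beside it, n = 3 per genotype. Atp5pf, Atp5pb and Atp5mf are lower in Harlequin and Sdhb, Atp5mc3 and Atp5po higher, and the nearest arrays of the genotypes lie closest in Sdhb, Atp5pf, Atp5mf and Atp5mc3.

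In all, 6 of 37 members separated the genotypes, 3 upward (Sdhb, Atp5mc3, Atp5po) and 3 downward (Atp5pb, Atp5pf, Atp5mf). This was 16.2% of the members, where 10.4% of all genes tested separated, 5.02% of all upward and 5.34% downward. With median scaling of the arrays the count was 1 in each direction, where 5.18% of all genes separated upward and 3.75% downward. Leaving out 1 array gave 3 to 6 upward and 3 to 8 downward, which was 8.11% to 16.2% and 8.11% to 21.6% of the members, where 8.59% to 11.2% of all genes separated upward and 8.99% to 11.1% downward. The 8 downward came without Harlequin replicate 1 and the 6 upward without control replicate 1.

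Probe sets of the same gene gave a second view of each difference. Above the signal filter there were 72 probe sets of the members, 34 higher and 38 lower, and 0 were called, where 0.0259% of 27022 probe sets were. At an unadjusted p under 0.05 there were 2, those of Atp5po and Atp5pf used above, against 4.7% of all probe sets, and 10 separated the genotypes, 3 upward and 7 downward, against 10% of all. Both bright probe sets of Atp5pb gave -0.14, and those of Atp5mf gave -0.06 and -0.13. Those of Cox7a2 gave -0.09 and -0.10. In other subunits the probe sets went opposite ways. A second probe set of the core protein Uqcrc2 was lower in all mutants (-0.16), while the one used gave 0.023, and Cox6c gave 0.028 and -0.20. Of 20 members with several probe sets above a mean signal of 1000, 11 had differences of both signs. In these 20 members, the range from the lowest to the highest probe set had a median of 0.072 and reached 0.41 in Atp5po. The genotype difference itself had a median size of 0.043 over all members tested. A range over several probe sets and the size of a single difference are unlike measures. Several of these probe sets carry the suffixes _s_at or _x_at, which mark probes shared with other transcripts, and pseudogene copies of Atp5me (Atp5k), Atp5mg (Atp5l) and Uqcrh are listed in the RefSeq gene table, so signals of those genes could include related sequences.

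**Figure D3:**
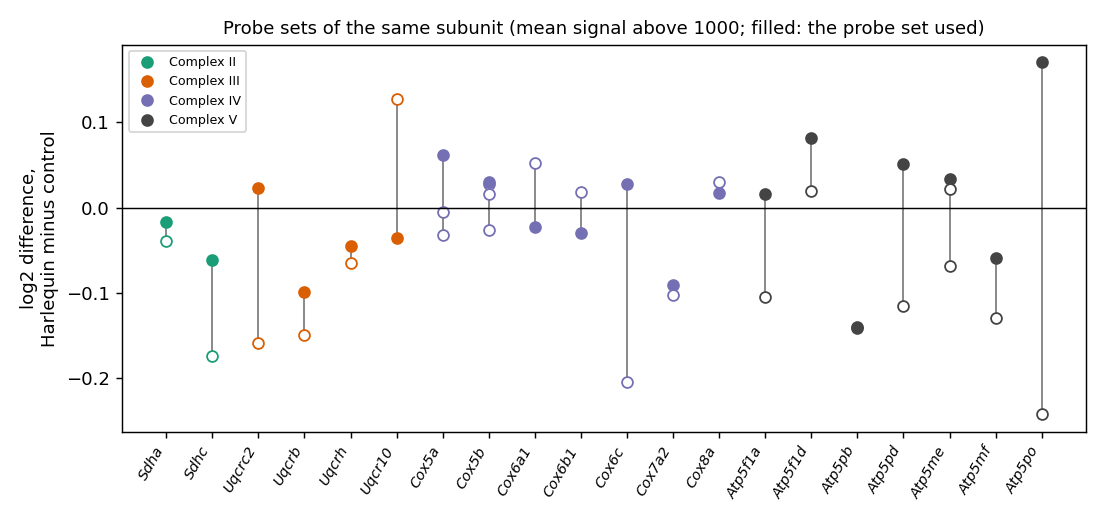
Log2 difference (Harlequin minus control) of every probe set with a mean signal above 1000, for the 20 subunits with several. Filled points are the probe sets used for the gene and lines join those of 1 gene. Atp5pb and Cox7a2 agree closely, and Atp5po spans both signs with a range of 0.41.

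Many subunits were high or low on the same arrays, across both genotypes. Each gene's value was set against its own mean over the 6 arrays. On Harlequin replicate 1, 29 of 37 members (78.4%) lay above their own mean, against 50.1% of all genes tested, with mean deviations of 0.073 for complex III, 0.032 for complex IV and 0.062 for complex V. On Harlequin replicate 2 it was 10 members and on replicate 3 14. On control replicate 1 it was 18, on replicate 2 22 and on replicate 3 10. Of all genes tested, 49.5% to 53.1% lay above their own mean on each array. Control replicate 3 was the lowest array for 12 members, and the highest was Harlequin replicate 1 for 13 and control replicate 2 for 12. Of all 13219 genes tested, control replicate 3 was the lowest for 2425. Harlequin replicate 1 was the highest for 2436 of them and control replicate 2 for 2203. The array mean over all 37 members was 0.051, -0.02 and -0.022 in Harlequin and -0.0091, 0.033 and -0.033 in controls, so the genotypes overlapped and the highest and lowest arrays were of different genotypes. Complex II moved least, between -0.02 and 0.019. Complex I subunits, measured on the same arrays, gave 0.056, -0.012 and -0.065 in Harlequin and 0.0088, 0.028 and -0.016 in controls. The spread between mice of 1 genotype was small, with a median coefficient of variation over the members of 4.51% in Harlequin and 5.32% in controls.

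**Figure D4:**
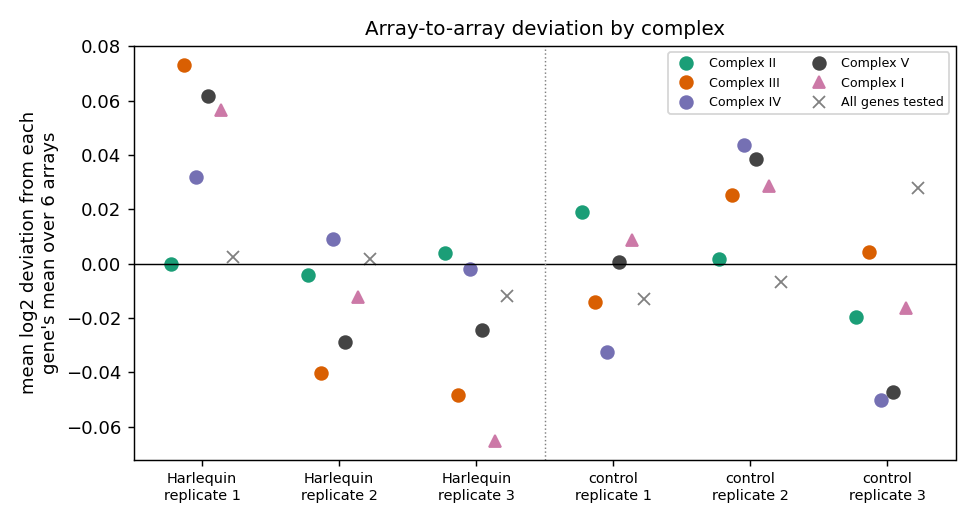
Mean log2 deviation of the subunits of each complex from their own means over the 6 arrays, by array, with complex I and all genes tested beside them. Harlequin replicate 1 lies highest for complexes III and V, while both genotypes spread around 0.

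Other genes of the pathway were also without a call. Of 31 listed assembly factors of complexes II to V on the array, 30 were measured, with a median of -0.0035, 14 higher and 16 lower. The largest was Cox18, an inserter that helps complex IV assembly, at 979 ± 42.6 in mutants against 745 ± 172 in controls (SD, n = 3), a log2 difference of 0.41 (limma adjusted p = 0.981) with all mutants above all controls. The copper chaperones Sco1 and Sco2 differed by -0.30 and 0.20. Among 11 measured tissue-restricted or further subunits the median was -0.019, with 5 higher and 6 lower. The isoform Cox4i2, at a dim signal of 60.6 ± 12.9 in mutants against 87.2 ± 8.7 in controls, differed by -0.44, the ATP synthase subunit Atp5mpl by -0.12 and the muscle isoform Cox7a1 by -0.19. Among 22 measured electron carriers, ubiquinone synthesis genes, ATP carriers and channels the median was 0.033, with 13 higher and 9 lower. These included cytochrome c, Cycs, at 12025 ± 434 in mutants against 13460.4 ± 1442 in controls (difference -0.16), the ubiquinone synthesis enzyme Coq6 (0.38) and the outer membrane channel Vdac3 (0.15). The 33 measured complex I subunits had a median of -0.035, with 14 higher, 19 lower and 0 called, and 6 separated the genotypes, 3 in each direction, or 18.2% of them against 10.4% of all genes tested. Their NADH-binding subunit Ndufv1 and the iron-sulfur subunit Ndufs7 were on average higher (0.29 and 0.21, adjusted p = 0.981), and Ndufb3 lower (-0.18). The difference between complex I and complexes II to V was not tested.

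Promoter letters were not used to choose the members, and 14 of 29 members with a promoter window (48.3%) held the NRF1 or ETS letters searched for. The share of all genes that held either was not counted, and the shares for each are given below. Nuclear respiratory factor 1 (NRF1) and the ETS family factor GABP are known regulators of respiratory chain genes. In RefSeq windows from 250 bases before to 50 after the gene start (GRCm38.p6), 29 of the 37 members were found. The NRF1 letters GCGCATGCG, on either strand, lay in 6 of 29 (20.7%), against 1.95% of 27025 genes and 3.86% of the 10647 genes tested here that have a window. The ETS letters CCGGAAG, on either strand, lay in 12 of 29 (41.4%), against 9.93% and 18.5%. Letter matches describe the window and show no binding. The following stretches of 70 bases, 5′ to 3′ on the gene's strand, were chosen to show an NRF1 match (capitals) in a complex IV subunit, a c-ring subunit and the e subunit of the ATP synthase, and an ETS match in complex III.
Cox6a1, chr5:115349081-115349150, minus strand: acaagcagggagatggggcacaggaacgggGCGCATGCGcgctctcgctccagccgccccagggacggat
Atp5mc2, chr15:102671050-102671119, minus strand: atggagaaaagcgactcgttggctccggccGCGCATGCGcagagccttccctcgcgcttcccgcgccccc
Atp5me, chr5:108434410-108434479, minus strand: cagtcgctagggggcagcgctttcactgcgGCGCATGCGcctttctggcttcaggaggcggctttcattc
Uqcr11, chr10:80406848-80406917, minus strand: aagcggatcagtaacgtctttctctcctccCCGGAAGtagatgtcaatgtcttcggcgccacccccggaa

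The members with the NRF1 letters, Atp5mc2, Atp5me, Atp5mg, Cox6a1, Uqcr11 and Uqcrc1, differed between the genotypes by -0.048 to 0.042, with a median of 0.0073. The other 23 differed by -0.22 to 0.20, with a median of -0.0018. Members with the ETS letters had a median of -0.0053 and those without 0.0056. None of these members was called.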

How the data were processed

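Total RNA (3 µg per mouse) of microdissected, snap-frozen olfactory epithelium was labelled with biotin for Affymetrix arrays, per the labels' protocols. Age on arrival was 13 weeks. The authors deposited 1 linear intensity for each of 45101 probe sets, and every array has a trimmed mean of 500 (2% left out at each end). The software that condensed them is not given in the sources used here. Such scaling does not remove array differences that vary with intensity.

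From these, 64 control probe sets were left out, and log2(value + 16) was taken, which understates changes of dim genes. For each gene the probe set of highest mean was used, and the 13219 genes above the 40th percentile (signal 61.1) were tested. All 37 members passed, as did 72 of their 78 probe sets. Older Atp5 symbols were matched to current ones. Harlequin and control (3 against 3 arrays) were compared with limma 3.58.1 in R 4.3.3, using an intensity trend, two-sided, with Benjamini-Hochberg adjustment over all genes; intervals cover 95%. The labels call the arrays biological replicates. The procedure was tested on simulated data with planted differences far larger than those of the members. That test does not show what would be called at the size of the members' differences. Promoter windows came from RefSeq (GRCm38.p6). Summaries used Python 3.11.15.

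Arrays are given in full for members with an unadjusted p under 0.05, separated genotypes, probe sets of both signs with 1 at an unadjusted p under 0.05, or the smallest 2 p-values or narrowest interval of a complex. They are also given for Sdha, Sdhb, Uqcrfs1, Cyc1, Cox4i1, Cox5a, Atp5f1a and Atp5f1b. Of each other list up to 3 genes with the smallest p were named, and those separated by at least 1.5-fold. Red cell, neutrophil, basal, fibroblast and adipocyte lists serve as markers of other cells; their medians were 1.46, 0.57, -0.0092, -0.42 and 1.17, with 0 calls. The members and lists were chosen with earlier results of these data known. Alternatives were pseudocounts of 1 and 64, no filter or the 60th percentile, quantile normalization, median scaling, no trend, robust moderation, array weights, the mean over probe sets, probe sets ending _a_at, _s_at or _x_at left out, a replicate block, and each array left out.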

Additional observations from a re-analysis of the deposited data

How the results depend on the processing

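No member was called under any of the 12 other settings or with any of the 6 arrays left out, and the smallest limma adjusted p of a member there was 0.892. No probe set of a member was called with a pseudocount of 64, without the filter or after quantile normalization, the settings run for probe sets. Leaving out probe sets by suffix left 28 members. The 14 members that kept their direction in every run that measured them included Sdhb, Cyc1, Uqcrb, Cox7a2, Atp5pb, Atp5pf, Atp5mf and Atp5mc3. Of those named, Sdhb, Cyc1, Atp5pf and Atp5mc3 had 1 probe set each, so averaging over probe sets could not change them. Atp5po averaged over its probe sets turned to -0.036. Leaving out 1 array moved the members between -0.30 and 0.28. The complex II median was 0.021 with median scaling, -0.11 as the mean over probe sets and -0.022 to 0.0060 with 1 array left out, and the complex V median was -0.032 as the mean over probe sets. With 1 array left out the complex III, IV and V medians ran from -0.051 to 0.028, -0.0058 to 0.042 and -0.013 to 0.049, so the sign of every complex's median depended on the arrays used. Members that separated the genotypes numbered 1 upward and 1 downward with median scaling, where 5.18% and 3.75% of all genes did. After quantile normalization they numbered 2 and 4 (5.11% and 5.26% of all genes). As the mean over probe sets they numbered 2 and 3 (4.86% and 5.22% of all genes). With 1 array left out they numbered 3 to 6 upward and 3 to 8 downward. There 8.59% to 11.2% of all genes separated upward and 8.99% to 11.1% downward, as fewer arrays make separation easier. Median scaling moved the median of all genes by 0.030. Aifm1 kept a difference of -2.20 without an intensity trend (adjusted p = 0.0887) and with the replicate block (adjusted p = 0.0605), and -2.40 to -2.08 with 1 array left out. The causes were not tested.

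The replicate number as a block called 0 genes and 0 members. Same-numbered arrays did not deviate together (correlations -0.24, -0.030 and 0.058). Harlequin replicates 1 and 2 correlated better with a control of another number. Harlequin replicate 3 correlated best with its own number (0.058 against -0.039 and -0.028). These correlations cannot show whether same-numbered mice shared more than a number.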

Other observations

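The only letters searched whose members all lay on one side of 0 were those of the factor YY1, AAGATGGC on either strand. Of 29 member promoters 3 held them (10.3%, against 3.19% of 27025 genes and 4.93% of the 10647 genes tested here that have a window), and these belonged to Atp5pf, Atp5pb and Atp5mf, the 3 members whose mutants all lay below all controls. This was noticed after the values were seen. In Atp5pf the match lies before the gene start of its window, in Atp5pb it spans the start and in Atp5mf it lies after it. The window of another listed start of Atp5pf did not hold the letters. The matches are shown in 30 bases each, 5′ to 3′ on the gene's strand, with the letters in capitals.
Atp5pf, chr16:84835046-84835075, minus strand: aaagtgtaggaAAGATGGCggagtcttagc
Atp5pb, chr3:105959248-105959277, minus strand: atgtgcgagcgGCCATCTTgctcctgcccc
Atp5mf, chr5:145191500-145191529, minus strand: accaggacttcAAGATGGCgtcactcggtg

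Over all 525 genes tested that held the YY1 letters, 4.76% separated the genotypes downward and 6.86% upward, against 5.33% and 5.02% of the 10122 genes without them, and their median difference was 0.019, against 0.00077 without them.

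Cox8b, the isoform of Cox8 known from heart, skeletal muscle and brown fat, gave 6046.8, 3300.7 and 6059.5 in the Harlequin mice against 3833.2, 4755.9 and 4708.5 in the littermates and was named after its values were seen. Harlequin replicate 2 was the lowest array and the genotypes overlapped (log2 difference 0.16, 95% interval -0.35 to 0.68). Only 3 of 8 skeletal muscle markers passed the signal filter, and these summed to between 202.9 and 340.5 per array. Other muscle isoforms were dim, with Cox6a2 at 73.4 to 107.4 and Cox7a1 at 227.6 to 318.5. The brown fat marker Cidea gave 725.2, 1467.7 and 917.5 in the Harlequin mice against 1334.9, 778.6 and 968.5 in the littermates, highest in Harlequin replicate 2, where Cox8b was lowest. The part of muscle or fat RNA in these values was not tested.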
